A study of Mus musculus with 6 samples.

Results

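The mTORC1 and S6 kinase pathway was followed here through 10 genes of 24532 in the deposited table: the S6 kinase genes Rps6kb1 and Rps6kb2, the kinase gene Mtor with the scaffold genes Rptor and Rictor, the 4E-binding protein genes Eif4ebp1 and Eif4ebp2, and the upstream regulators Tsc1, Tsc2 and Rheb. They were taken by gene symbol, their transcripts were summed by gene identifier, and all 10 passed the filter on low counts. Rps6kb2 was chosen by its small p in an earlier look at this same comparison of ethanol with control, so its group difference is given below as a description, with no test. The other 9 are genes of the same pathway, and their group differences had been computed in that look too, so their values are likewise descriptions of these samples.

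The samples were bulk messenger RNA of the nucleus accumbens core, a ventral striatal region of reward and motivation, from WT male mice described as adolescent (postnatal days 35 to 55). The labels describe contextual fear conditioning, then 6 intraperitoneal injections of 20% v/v ethanol within 6 h (1.8 g/kg, then 1.2 g/kg for the later ones), then extinction in the context and 27 days of every-other-day drinking, with tissue collected 24 h after the end. The titles put 3 samples in a control group and 3 in an ethanol group, while the treatment field reads ethanol exposure for all 6 and the protocol text does not say what controls were injected with. Drinking days are given for both groups, and nothing states that each sample was 1 animal, so a p-value here reflects sample-to-sample spread that may be technical.

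The mTOR kinase works in a pair of complexes. In mTORC1 it is joined by Raptor, the product of Rptor, and phosphorylates the S6 kinases and the 4E-binding proteins, which sets the rate of cap-dependent translation; in mTORC2 it is joined by Rictor. The small GTPase Rheb switches mTORC1 on, and the TSC1-TSC2 complex keeps Rheb off. Rodent work has linked mTORC1 signalling in the nucleus accumbens to alcohol drinking and seeking. These steps run through phosphorylation, which messenger RNA does not measure.

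The libraries held 35898026 to 67399599 estimated reads, with ethanol 1 the deepest. Control 2 had reads for 15924 genes, against 17096 to 17707 in the other 5 libraries, and was the outlying library in the first principal component. Of 10 markers of medium spiny neurons, the main cell of this tissue, 10 were read in every library. Their summed level was 1830 to 2195 CPM in control (CPM are reads per 1000000 of the TMM-scaled library). It was 2363, 3838 and 1934 CPM in ethanol 1, 2 and 3.

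Among the members, Rps6kb2 stood lower in every ethanol library than in any control library, and so did Rheb by a smaller step. Rps6kb1 stood lower and Eif4ebp2 higher on average, with groups that overlapped, while Mtor, Rptor, Rictor, Eif4ebp1, Tsc1 and Tsc2 differed by less than 0.33 on the log2 scale. By edgeR's quasi-likelihood test with Benjamini-Hochberg adjustment over all 15774 genes tested, 0 of the 10 members passed an adjusted p of 0.05, where the share called among all genes was 0.0%. The adjusted p of the 9 members other than Rps6kb2 lay between 0.448 and 0.930. limma-voom called 0 members. DESeq2 called 1, Rps6kb2, beside 0.608% of all genes in the lower direction, which supports nothing since that gene was chosen from this comparison. At an unadjusted p under 0.05 there were 2 members, Rps6kb2 (lower) and Eif4ebp2 (higher). The shares over all genes were 5.34% lower and 5.31% higher, from which nothing is read here, since the small p of Rps6kb2 is what chose it. Its place in the next counts was likewise fixed by that choice. A log2 fold change of at least 1 in size was met in 2 members, Rps6kb2 and Eif4ebp2, beside 4.51% of all genes. There were 5 members with a positive and 5 with a negative log2 fold change, with a median of -0.04 against 0.02 over all genes tested. The groups did not overlap in 2 members, Rps6kb2 and Rheb, both with ethanol below, as in 8.41% of all genes. Without ethanol 2 they did not overlap in 6 members, beside 43.0% of all genes in either direction, and without ethanol 3 in 4, beside 34.5%. With all 6 libraries no member had ethanol above control throughout, as 9.35% of all genes did. In bulk tissue, fewer cells of a type and less RNA per cell cannot be told apart.

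**Figure D1:**
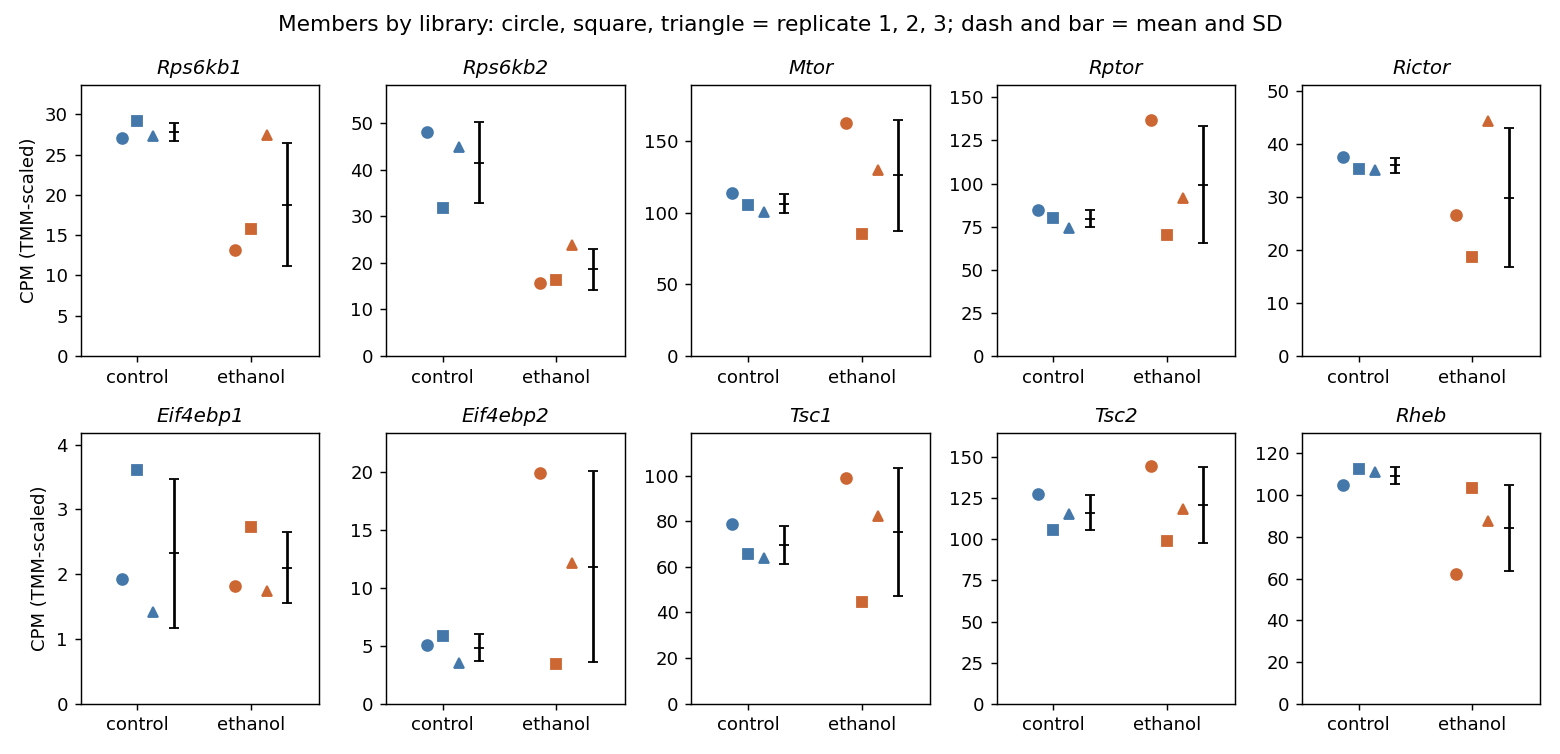
CPM of each member in the 3 control (blue) and 3 ethanol (orange) libraries on linear axes from 0; circle, square and triangle are replicates 1, 2 and 3, and the dash with a bar is the mean with its SD. Rps6kb2 and Rheb have no overlap between groups, and in Mtor, Rptor, Tsc1, Tsc2 and Eif4ebp2 the highest and the lowest of all 6 libraries are ethanol 1 and ethanol 2.

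Rps6kb2 encodes S6 kinase 2, which phosphorylates ribosomal protein S6 alongside S6 kinase 1. In the deposited table it has 1 transcript of 1491 bases on chromosome 19, from 4156977 to 4163245 in mm10. It stood at 48.1, 31.7 and 44.8 CPM in control 1, 2 and 3, and at 15.7, 16.3 and 23.7 CPM in ethanol 1, 2 and 3, from 668 to 2769 reads. The lowest control library lay above the highest ethanol library. The group means were 41.5 ± 8.63 and 18.6 ± 4.47 CPM (SD, n = 3 each). The log2 fold change was -1.16 (SE 0.23), at least as large in size as that of 97.0% of all genes. For Eif4ebp2, whose groups overlapped, that share was 97.9%. Leaving out 1 library at a time kept the value of Rps6kb2 between -1.37 and -1.04, and with GC and length trends removed per library it was -1.25. As this comparison chose the gene, its rank and these values are descriptions and are not read as robustness.

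Rps6kb1 encodes S6 kinase 1, the better known S6 kinase and a substrate of mTORC1. It lies on chromosome 11 from 86499011 to 86544807 and has 2 listed transcripts, of which the 5393-base variant 1 held 96.3% to 99.7% of its summed FPKM. It stood at 27.02, 29.2 and 27.4 CPM in control, and at 13.1, 15.8 and 27.5 CPM in ethanol 1, 2 and 3. The control values were close together, and ethanol 3 stood among them, so the groups overlapped. The log2 fold change was -0.57 (SE 0.26), and it ranged from -0.94 without ethanol 3 to -0.36 without ethanol 1. With GC and length trends removed, the values were 25.2, 24.9 and 25.3 CPM in control and 17.8, 19.2 and 22.97 CPM in ethanol, so that all 3 ethanol libraries lay below all 3 control libraries, as they did in 10.2% of all genes under that setting. The log2 fold change was then -0.33 (SE 0.12), with an adjusted p of 0.220 in edgeR. Exons of Rps6kb1 share 155 bases with Rnft1 on the opposite strand (GENCODE M21), and whether reads were counted by strand is not given in the sources used here.

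Per length of the deposited models (1491 and mainly 5393 bases), S6 kinase 2 messenger exceeded S6 kinase 1 messenger in every library. The ratio of summed FPKM was 6.39, 3.89 and 5.88 in the control libraries and 4.30, 3.73 and 3.08 in ethanol 1, 2 and 3. Control 2 stood below ethanol 1, so the ratio overlapped between groups. Its size depends on the gene models: with reads divided by the longest GENCODE M21 transcripts, 4586 bases for Rps6kb2 and 5531 for Rps6kb1, it was 2.14, 1.31 and 1.97 in control and 1.44, 1.24 and 1.04 in ethanol. Those reads were still the ones estimated on the deposited models. Reads from the added length of Rps6kb2 may be missing, which would make this ratio too low.

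Eif4ebp2 encodes 4E-BP2, a repressor of the cap-binding protein eIF4E that is known as the main 4E-binding protein of the brain. It lies on chromosome 10 from 61432497 to 61452669. It stood at 5.09, 5.85 and 3.55 CPM in control and at 19.9, 3.43 and 12.2 CPM in ethanol 1, 2 and 3. Ethanol 1 and ethanol 3 stood above every control library, and ethanol 2 was the lowest of the 6. The means were 4.83 ± 1.17 and 11.8 ± 8.24 CPM (SD, n = 3 each), and the log2 fold change was 1.30 (SE 0.51, adjusted p = 0.448 in edgeR). Its value turned on single libraries: it was 0.69 without ethanol 1 and 1.72 without ethanol 2, where edgeR called it (adjusted p = 0.0255), as it did 1.26% of all genes in the higher direction. With the trends removed the log2 fold change was 1.06, and ethanol 2 at 4.18 CPM still stood inside the control range of 3.84 to 6.22 CPM. That removal took Eif4ebp2 at 5784 bases, while its reads were estimated on a model of 1786 bases, and the deposited length was not tested.

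Eif4ebp1 encodes 4E-BP1, the founding member of that family, and lies on chromosome 8 from 27260327 to 27275656. It was the least abundant member, at 1.93, 3.61 and 1.42 CPM in control and 1.82, 2.73 and 1.74 CPM in ethanol, from 52 to 139 reads. The ethanol values lay inside the control range. Its log2 fold change of -0.15 (SE 0.41) became 0.32 without control 2, the highest library.

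Mtor, on chromosome 4 from 148448582 to 148557685, stood at 114, 105 and 100.2 CPM in control and at 163, 85.3 and 129.85 CPM in ethanol 1, 2 and 3. Rptor, whose product brings substrates to mTORC1, lies on chromosome 11 from 119602905 to 119899591. It followed Mtor, at 84.6, 80.1 and 74.4 CPM in control and 137, 70.02 and 91.5 CPM in ethanol. In both genes ethanol 2 was the lowest library and ethanol 1 the highest. Their log2 fold changes of 0.24 (SE 0.23) and 0.32 (SE 0.23) shrank to 0.02 each without ethanol 1. The ratio of Rptor to Mtor in summed FPKM stayed between 0.862 and 1.03 over the 6 libraries.

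Rictor, the scaffold gene of mTORC2, lies on chromosome 15 from 6708381 to 6800400. It stood at 37.6, 35.3 and 35.2 CPM in control and at 26.7, 18.7 and 44.3 CPM in ethanol 1, 2 and 3. The 3 control libraries were close, and the ethanol libraries lay on both sides of them. The log2 fold change of -0.27 (SE 0.28) was -0.66 without ethanol 3 and -0.03 without ethanol 2. With the trends removed it was -0.05, with ethanol libraries at 33.2, 26.5 and 34.6 CPM. The ratio of Rictor to Rptor in summed FPKM, 0.332 to 0.357 in control, was 0.147, 0.201 and 0.365 in ethanol 1, 2 and 3, so ethanol 3 stood above control and the other ethanol libraries below.

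Rheb encodes the GTPase that activates mTORC1 and lies on chromosome 5 from 24802823 to 24842361. It stood at 105, 112 and 111 CPM in control and at 62.4, 103 and 87.5 CPM in ethanol 1, 2 and 3. All ethanol libraries lay below all control libraries, ethanol 2 by little. The means were 109 ± 4.09 and 84.4 ± 20.6 CPM (SD, n = 3 each), and the log2 fold change was -0.37 (SE 0.20), with an adjusted p of 0.516 in edgeR. It was -0.20 without ethanol 1. With the trends removed, ethanol 2 stood at 110 CPM, level with control 3, and the groups overlapped. That removal took Rheb at its GENCODE M21 length of 4046 bases, while its reads were estimated on a model of 1521 bases. Over all genes, ethanol 2 deviated by a median of -0.14 (log2) at 3858 to 5221 bases and 0.28 at 55 to 1920 bases. The adjustment of Rheb thus depends on the length taken, and the deposited length was not tested.

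Tsc1 and Tsc2 encode hamartin and tuberin, the core of the complex that turns Rheb off. Tsc1, on chromosome 2 from 28641233 to 28691172, stood at 78.9, 65.9 and 63.7 CPM in control and at 99.0, 44.6 and 82.3 CPM in ethanol 1, 2 and 3. Tsc2, on chromosome 17 from 24595816 to 24632627, stood at 127, 106 and 115 CPM in control and at 145, 99.2 and 118.5 CPM in ethanol. In both genes the ethanol libraries spread over more than the control range. The log2 fold changes were 0.12 (SE 0.27) and 0.06 (SE 0.18). Tsc2 shares 693 exon bases with Pkd1 on the opposite strand, so some of its reads could belong to that gene.

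**Figure D2:**
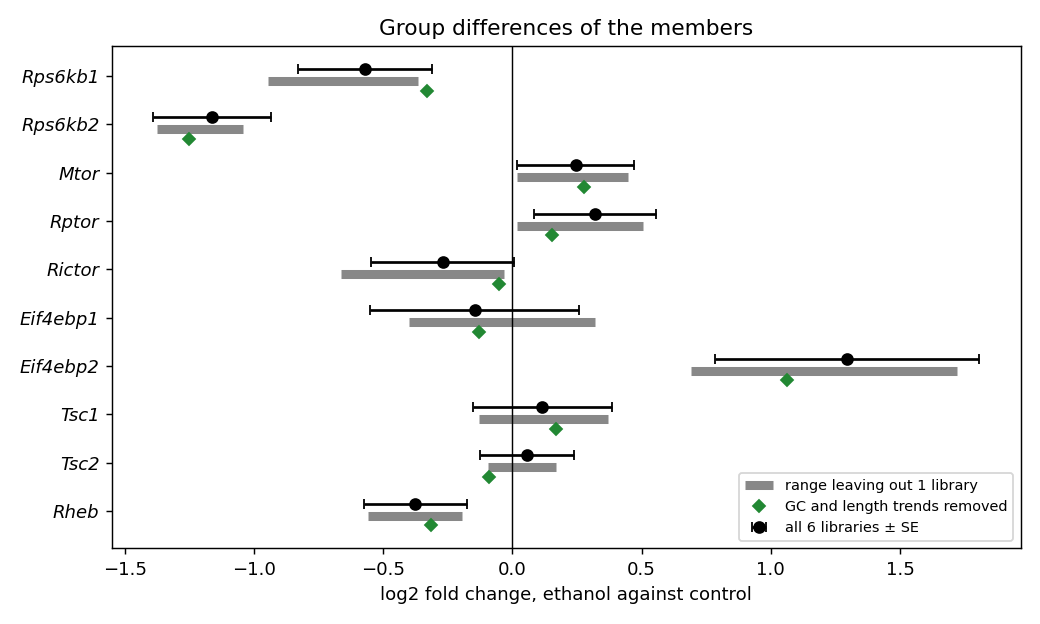
Log2 fold change of each member, ethanol against control, with all 6 libraries (black point, bar of 1 SE), the range over the 6 fits that leave out 1 library (grey) and the value with GC and length trends removed (green diamond). Rps6kb2, which was chosen by its small p in this comparison, stays between -1.37 and -1.04, from which nothing is read. The ranges of Eif4ebp1, Tsc1 and Tsc2 cross 0.

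The wider spread within the ethanol group was found over most genes, the members among them. Over all genes tested, the median SD of log2 CPM was 0.285 in ethanol and 0.156 in control. The SD of log2 CPM was larger in ethanol than in control for 9 of the 10 members, as it was for 74.1% of all genes tested. In all, 5 members, Mtor, Rptor, Eif4ebp2, Tsc1 and Tsc2, had ethanol 1 as the highest and ethanol 2 as the lowest of the 6 libraries, a pattern noticed after the values were seen and found in 8.41% of all genes. The longest GENCODE M21 models of these 5 have 5784 to 8564 bases, with 51.7% to 56.5% GC. The reads of Eif4ebp2 were estimated on a shorter deposited model of 1786 bases. Over all genes the libraries differed by transcript length. In the quintile of genes with the longest transcripts, the median deviation from the mean over 6 libraries was 0.19, -0.36 and 0.22 in ethanol 1, 2 and 3 on the log2 scale, and -0.05 to 0.02 in the control libraries. In the quintile with the shortest it was -0.18, 0.28 and -0.18 in ethanol and -0.02 to 0.12 in control. By GC content, ethanol 1 stood apart, with -0.31 in the quintile of genes lowest in GC, to which Rps6kb1 (39.2% GC) and Rictor (42.5%) belong, and 0.11 in the quintile highest in GC.

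With a trend over GC content and GENCODE M21 length removed from each library, the ethanol SD on the log2 scale was smaller for 9 of the 10 members. The same held for 72.5% of all genes. The exception was Rps6kb2, whose ethanol SD was 0.32 before and 0.42 after. Rps6kb2 was adjusted at 4586 bases, against 1491 in its deposited model. Mtor then stood at 104, 106 and 102 CPM in control and 149.7, 117 and 112 CPM in ethanol, with ethanol above throughout, as in 14.7% of all genes under that setting. Rptor stood at 82.5, 87.15 and 79.9 CPM in control and 104.5, 88.4 and 84.2 CPM in ethanol, where the groups still overlapped. Their log2 fold changes were 0.28 (SE 0.13) and 0.15 (SE 0.12), neither past the threshold.

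**Figure D3:**
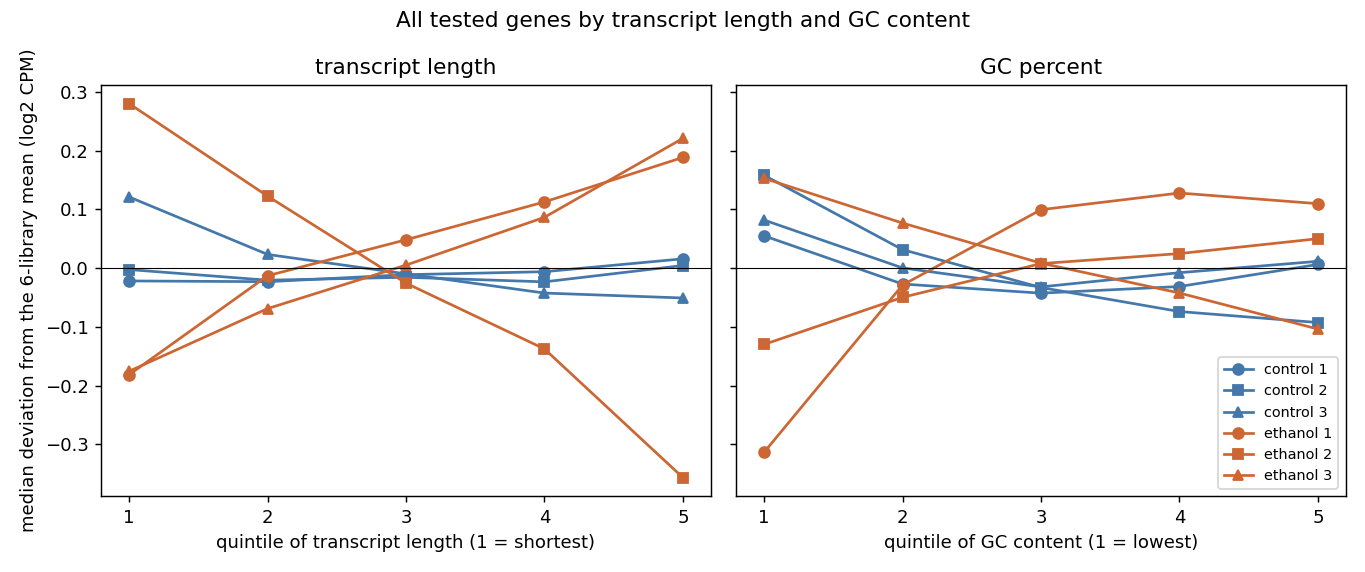
Median deviation of log2 CPM from the mean over 6 libraries, for all tested genes in quintiles of transcript length (left) and of GC content (right); each line is a library, control in blue and ethanol in orange. Ethanol 2 runs from 0.28 in the shortest to -0.36 in the longest quintile, opposite to ethanol 1 and ethanol 3.

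Of the 10 members, 8 had a promoter window in RefSeq (GRCm38.p6). Rps6kb2 and Eif4ebp1 had no entry. The 120 bases before the start are shown for 3 of the 5 genes that were highest in ethanol 1 and lowest in ethanol 2, and for Rheb. Rheb was lowest in ethanol 1, as were Rps6kb1 and Rps6kb2. Capitals mark the GC box GGGCGG or its reverse complement CCGCCC, and the E-box CACGTG.
Mtor: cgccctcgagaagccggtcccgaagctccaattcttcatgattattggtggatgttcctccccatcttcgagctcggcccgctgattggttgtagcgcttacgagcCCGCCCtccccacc
Rptor: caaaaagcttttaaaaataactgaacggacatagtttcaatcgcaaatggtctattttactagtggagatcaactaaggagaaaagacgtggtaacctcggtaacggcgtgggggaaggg
Eif4ebp2: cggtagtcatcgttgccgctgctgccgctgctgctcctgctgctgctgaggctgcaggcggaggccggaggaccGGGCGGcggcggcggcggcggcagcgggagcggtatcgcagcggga
Rheb: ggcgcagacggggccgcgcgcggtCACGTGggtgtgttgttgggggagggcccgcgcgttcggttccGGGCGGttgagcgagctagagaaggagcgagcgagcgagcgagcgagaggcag
The stretches lie at chr4:148448462-148448581 (plus strand), chr11:119602785-119602904 (plus), chr10:61452670-61452789 (minus) and chr5:24842362-24842481 (minus). Over the 250 bases before the start, Mtor and Eif4ebp2 each held 2 GC boxes, Rptor held 0 and Rheb 1, and 32.7% of 32851 such windows held at least 1. The E-box stood once in the Rheb window and in none of the other 7 members' windows, and 6.02% of all windows held it. The Rptor window had 37.6% GC and 9 CpG, against 54.4% and 19 for Mtor, 70.0% and 28 for Eif4ebp2 and 68.0% and 37 for Rheb. Tsc1 (54.4% GC, 16 CpG) and Tsc2 (62.8%, 24 CpG), the other two genes highest in ethanol 1 and lowest in ethanol 2, held 0 GC boxes each. The 5 genes thus ranged from 37.6% to 70.0% GC, beside a median of 52.4% over all windows. Rps6kb1 (52.8% GC, 17 CpG) held 0 GC boxes and Rictor (81.2%, 40 CpG) held 4. A match is a description of these letters only.

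Levels between genes were compared per length, as FPKM summed over the transcripts of a gene (reads per kilobase of transcript and 1000000 reads). Rheb was the most abundant, at 52.8 ± 12.1 FPKM over the 6 libraries (SD, n = 6), above 91.2% of tested genes. Then followed Rps6kb2 (16.9), Tsc2 (15.7), Mtor (11.1), Rptor (10.4), Tsc1 (7.73), Eif4ebp2 (3.76), Rps6kb1 (3.64), Rictor (2.94) and Eif4ebp1 (1.85 FPKM), beside a median of 5.79 FPKM over tested genes. The 9 neighbouring pairs in this order were compared by an exact two-sided sign-flip permutation test within libraries, whose smallest p is 0.03125. Of these, 4 pairs kept 1 order in all 6 libraries and reached that p (Rheb over Rps6kb2, Tsc2 over Mtor, Rptor over Tsc1, and Tsc1 over Eif4ebp2), which became 0.0703 after Benjamini-Hochberg adjustment over the 9 pairs, so 0 pairs passed. With that smallest p, a pair could pass only if most of the 9 pairs reached it, so the lack of a pass does not show an unsteady order. Eif4ebp2 against Rps6kb1 gave p = 0.875 (exact permutation), with Eif4ebp2 higher in 2 of 6 libraries, ethanol 1 and ethanol 3. Mtor against Rptor gave p = 0.125 (exact permutation), with Mtor higher in 4 of 6 libraries. Rps6kb2 against Tsc2 gave p = 0.906 (exact permutation). Rps6kb2 stood above Tsc2 in the 3 control libraries and below it in the 3 ethanol libraries. Opposite differences, as in each of these pairs, cancel in this test, so their p-values do not show the levels to be alike. For Rps6kb1 over Rictor and for Rictor over Eif4ebp1, each in 5 of 6 libraries, p was 0.0938 (exact permutation). Rps6kb2 ranked behind Rheb alone in each of the 3 control libraries, and in the ethanol libraries its rank among the 10 was 7, 3 and 3. The deposited models of Rheb (1521 bases), Rps6kb2 (1491), Eif4ebp1 (981) and Eif4ebp2 (1786) are shorter than the longest GENCODE M21 transcripts of 4046, 4586, 1997 and 5784 bases, which bears on values per length.

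**Figure D4:**
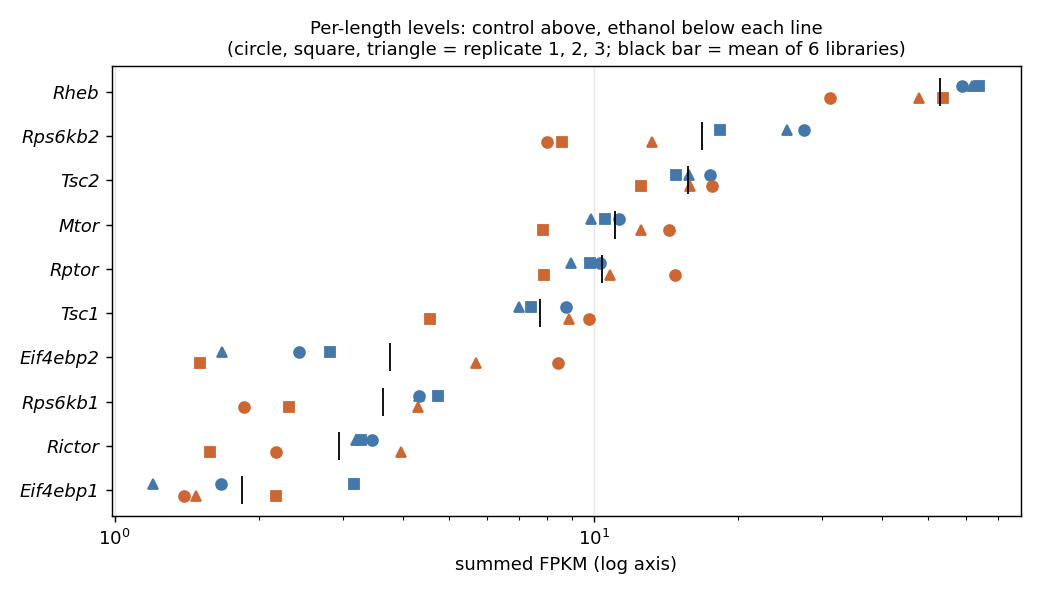
Summed FPKM of each member on a log axis, ordered by the mean over 6 libraries (black bar); blue points above the line are control and orange points below it ethanol, with circle, square and triangle for replicates 1, 2 and 3. Rheb stands highest in every library, and Rps6kb2 changes places with Tsc2 between the control and ethanol libraries.

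Within the TSC genes, the estimated split among isoforms varied more than the sums. Of Tsc1, variant 3 held 98.6%, 97.98% and 92.1% of the summed FPKM in control and 58.1%, 72.9% and 55.3% in ethanol 1, 2 and 3. Most of the rest was variant 2 in ethanol 1 (41.9%) and ethanol 3 (40.7%), and variant 1 in ethanol 2 (27.1%). The variants are of nearly the same length (7683, 7697 and 7715 bases), and how many reads tell them apart was not tested. In the test of single transcripts, over all transcripts that passed the filter, variant 3 had a log2 fold change of -0.55 (adjusted p = 0.753) and the summed gene 0.12. Of Tsc2, 7 variants were listed and variant 6 led in 5 of the 6 libraries, with 34.9% to 82.8%. In ethanol 1 it held 21.9%, against 23.3% for variant 2. Variant 7 held 42.03% in ethanol 2 and 2.70% to 15.4% in the other libraries. Rptor had 98.7% or more of its FPKM in variant 1.

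**Figure D5:**
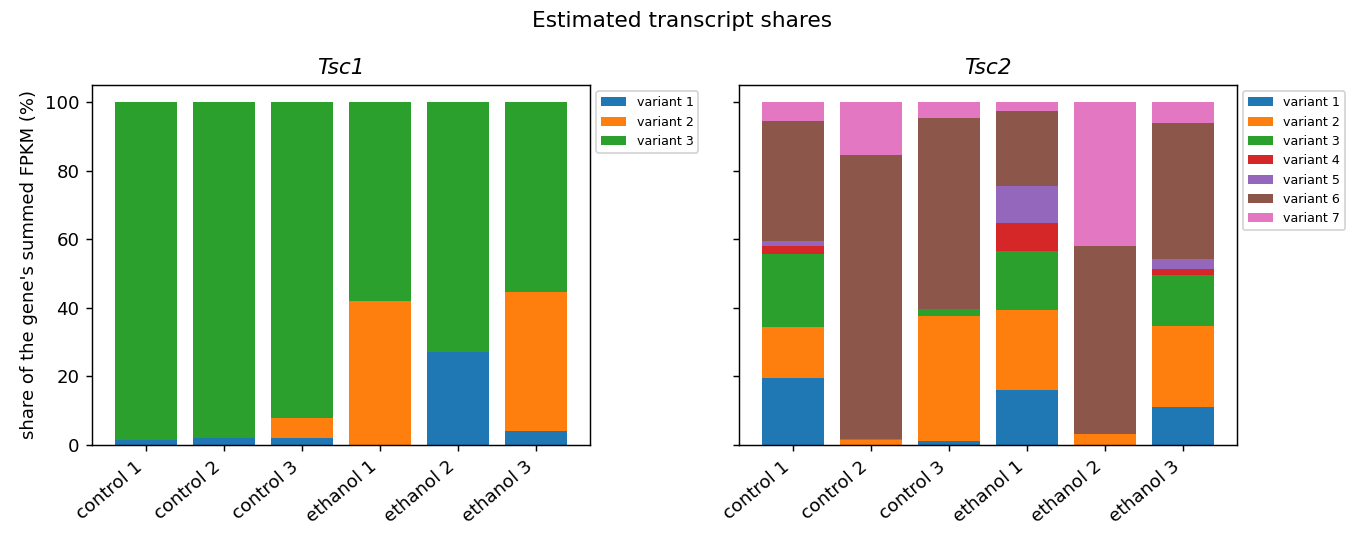
Share of each gene's summed FPKM assigned to each listed transcript variant, for Tsc1 (left) and Tsc2 (right), 1 bar per library. Tsc1 variant 3 holds over 92% in the control libraries and 55.3% to 72.9% in the ethanol libraries, and Tsc2 variant 7 is largest in ethanol 2.

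The rest of the pathway was read from 6 lists of 93 genes, of which 93 passed the low-count filter, 2 of them matched to the table by gene identifier (Castor1 and Castor2). By edgeR 0 of the 93 passed. A positive log2 fold change was found in 55 and a negative one in 38, where 52.7% of all genes were positive, and the median was 0.08. Ethanol stood above control without overlap in 14 genes (15.1%, beside 9.35% of all genes) and below in 4 (4.30%, beside 8.41%). Of the genes named below, by a rule that took the smallest unadjusted p per direction, none passed.

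Among the translation factors and S6 kinase substrates, 11 of 16 genes were higher, with a median of 0.16, beside 52.7% of all genes. Ethanol lay above control without overlap in 6 and below in 1, beside 9.35% and 8.41% of all genes. The list was chosen with earlier results of these data known, so the counts are a description. Eif4h, a helper of the eIF4A helicase, stood at 360.3, 375 and 361 CPM in control and 533, 583 and 412 CPM in ethanol 1, 2 and 3, with a log2 fold change of 0.48 (SE 0.17). Eif4ebp3, the remaining 4E-binding protein gene, stood at 8.47, 8.24 and 11.8 CPM in control and 2.49, 5.96 and 4.32 CPM in ethanol, with a log2 fold change of -1.16 (SE 0.33). The groups overlapped in neither gene, and the 3 family members thus had log2 fold changes of -0.15, 1.30 and -1.16.

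Of 29 genes of amino acid sensing, which signal to mTORC1 at the lysosome, 16 were higher and 13 lower (median 0.01). Sesn3, a sestrin that restrains mTORC1, stood at 11.3, 13.6 and 10.2 CPM in control and 34.4, 13.2 and 30.5 CPM in ethanol 1, 2 and 3, so that ethanol 2 again lay in the control range. Its log2 fold change was 1.15 (SE 0.32), and 1.35 with the trends removed. Fnip1, a partner of folliculin, had -0.54, and -0.27 with the trends removed.

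Of 20 genes of growth factor and energy inputs 12 were higher (median 0.07). Pdpk1, the kinase gene of PDK1 that phosphorylates AKT and S6 kinase, had a log2 fold change of 0.60 (SE 0.23), and Rhebl1, a relative of Rheb, had -0.43 (SE 0.26). Of 11 related kinases, 5 were higher and 6 lower (median -0.01). Rps6kc1, a kinase-like relative, stood at 39.5, 35.6 and 36.3 CPM in control and 66.3, 51.5 and 49.8 CPM in ethanol, without overlap, while Rps6ka3, which encodes the kinase RSK2, had a log2 fold change of -0.57, and -0.28 with the trends removed. Other mTORC1 and mTORC2 subunits and assembly factors had a median of 0.17, with Prr5 at 0.27 and Prr5l at -0.11. Autophagy genes and TFEB relatives had a median of 0.15, with Ulk1 at 0.24 and Mitf at -0.29.

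The genes described here beside Rps6kb2 start within 50 kb of it on chromosome 19. Their differences were smaller, from which nothing is read, since the choice of Rps6kb2 by its small p favours that. Carns1, the nearest on the side of its start, had a log2 fold change of -0.54 (SE 0.22), from 35.03 to 48.4 CPM in control and 21.4 to 35.3 CPM in ethanol. Coro1b had -0.06, Tmem134 0.01, Ppp1ca 0.37 and Rad9a -0.18. Tbc1d10c and Ptprcap, at 0.112 to 2.45 CPM, had -0.61 (SE 0.39) and -0.59 (SE 0.73), and the groups overlapped in each of the genes named here. In GENCODE M21 the Rps6kb2 gene reaches from 4153991 to 4163354 and overlaps 45 bases at the end of Coro1b and 2761 of the 3148 bases of Ptprcap, both on the opposite strand, whereas the deposited model starts beyond both.

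Likeness to Rps6kb2 was taken as the Pearson correlation of log2 CPM over the 6 libraries. Tested genes with a mean log2 CPM of at least 1 were ranked, with unnamed gene models left out. The 3 most alike were Rgl2 (0.997), P3h3 (0.996) and Dcun1d2 (0.992). With 6 libraries and a pool drawn from 15774 genes such values are a description. Rgl2, a Ral exchange factor gene, stood at 95.1, 64.6 and 89.8 CPM in control and 36.5, 40.07 and 51.01 CPM in ethanol, and P3h3, a prolyl hydroxylase gene, at 46.4, 33.6 and 45.9 and at 19.2, 17.7 and 25.9 CPM. Dcun1d2, a gene of the neddylation system, followed the same order over a small range, from 41.7 to 49.1 CPM.

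Markers of other cells were read beside these values. Slc17a7, the vesicular glutamate transporter gene of cortical neurons, stood at 289, 58.2 and 102 CPM in control and 24.7, 9.42 and 55.9 CPM in ethanol 1, 2 and 3, the same order of libraries as Rps6kb2 but for ethanol 1 and 2. The whole cortical list (8 genes, Emx1 at 0 in at least 1 library) summed to 267 to 505 CPM in control and 227 to 276 CPM in ethanol. Of its 7 tested genes 3 were higher and 4 lower, with a median log2 fold change of -0.55. In 2 of the 7 ethanol lay below control without overlap, as in 8.41% of all genes. Slc17a7 was named after its values were seen. Without it, the other 7 genes summed to 192 to 217 CPM in control and 218 to 224 CPM in ethanol. The lower sum of the whole list in ethanol was thus that of Slc17a7. A sum is weighted to abundant genes and does not show how each of the others differed. Of 8 meningeal fibroblast markers, 8 were lower, and the sums were 32.02 to 58.2 and 26.9 to 32.1 CPM. Of 8 astrocyte markers 7 were higher, with sums of 1875 to 2246 and 2221 to 2820 CPM. Of 10 medium spiny neuron markers 9 were higher, with the sums given above. Oligodendrocytes summed to 20278 to 23967 and 16956 to 22120 CPM, oligodendrocyte precursors to 520.3 to 522 and 525 to 686, microglia to 435 to 559.9 and 456 to 744, and endothelial and mural cells to 281 to 342 and 267 to 286 CPM. Choroid plexus genes summed to 413 CPM in control 3 and to 12.4 to 19.98 CPM in the other 5 libraries, and red blood cell genes to 119 to 225 and 112 to 446 CPM. The highest sums of medium spiny neuron, microglia and red blood cell genes were all in ethanol 2. The part of these shifts in the member values was not tested.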

How the data were processed

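Messenger RNA of 6 samples (3 control, 3 ethanol, by title) was analysed from 1 deposited table. Per the file headers it holds a read count and an FPKM value for each of 36780 RefSeq transcripts. The submitters' processing notes name mm10 and bcl2fastq (aligner and counter not given in the sources used here). Deposited counts are estimated counts: in every library 100% of those checked equalled FPKM × length × library size rounded up, within 0.05 reads. Counts were summed to 24532 gene identifiers, of which 10 carried 2 symbols. No other sample columns were present.

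Genes passing filterByExpr (minimum count 10; 15774 genes) were TMM-scaled and compared with edgeR 4.0.16 (quasi-likelihood test, group only, two-sided, R 4.3.3), adjusted over all genes, threshold 0.05. The SE is the log2 fold change over the square root of F. Alternatives were DESeq2 1.42.0, limma-voom 3.58.1, other scalings and filters, a replicate block, single transcripts and leaving out each sample. Removal of GC and length trends (loess per library, span 0.5, with GENCODE M21 matched for 97.0% of genes) was an alternative chosen after seeing the data. It used the longest GENCODE M21 lengths, which exceed the deposited models of Rheb, Rps6kb2, Eif4ebp1 and Eif4ebp2. The fit was tested on simulated data. A floor of 3 reads stood for 0.0445 to 0.0836 CPM (counting error only).

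Members and lists were chosen with earlier results of these data known. All members are named, with the smallest unadjusted p per direction of each pathway list, the 3 genes most like Rps6kb2 (log2 of CPM + 0.5) and its neighbours within 50 kb. Member levels were compared as log2(FPKM + 1). The counts turned out to be estimates per transcript, as the design had assumed. A gene beside Rps6kb2 is not reported here.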

Additional observations from a re-analysis of the deposited data

How the results depend on the processing

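Over the alternatives, 140 values of single members were recomputed, of which 130 kept their direction and kept an adjusted p above 0.05, 2 passed that threshold and 8 changed sign. DESeq2 called 145 genes and 1 member, Rps6kb2, which had been known from this comparison; with all 6 libraries, edgeR and limma-voom called 0 members. Fits without 1 library called 0 to 211 genes (211 without ethanol 2, and 1 without control 1) and 0 to 1 member, Eif4ebp2 without ethanol 2, and the members' median lay between -0.12 and 0.07. The members whose groups did not overlap numbered 2 to 6, with 6 without ethanol 2 and 4 without ethanol 3, settings under which 43.0% and 34.5% of all genes did not overlap. The sign changes were those of Tsc2 (-0.029 with total counts only, -0.091 with trends removed, -0.093 without ethanol 1 to 0.17 without ethanol 2, with -0.0028 without control 2, and -0.56 in its most abundant transcript), Tsc1 (-0.13 without ethanol 1 to 0.37 without ethanol 2, and -0.55 in its most abundant transcript) and Eif4ebp1 (-0.40 without control 3 to 0.32 without control 2); the cause was not tested. With the replicate number as a block, edgeR called 0 genes and 0 members, and the members' median was -0.01, and no call changed. The numbers gave no sign of pairing, with correlations of deviations of 0.15, -0.03 and -0.02 for the same-numbered samples. With 5 libraries the sign-flip test of levels cannot pass 0.05. Eif4ebp1, with 52 to 139 reads, is the member that depth limits most.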
